A study of Mus musculus with 16 samples.

Results

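Cd4, Cd8a and Cd8b1 encode the coreceptors by which mature T cells are divided into CD4 and CD8 cells. They were taken by gene name from the count table, a rule that uses no measured value, and are 3 of its 24421 genes. Earlier results of these data were known when they were chosen. All 3 passed the filter on low counts that left 13554 genes for testing. RNA sequencing was done on naive T cells of C57BL/6 lymph nodes, gated as CD25 negative, CD62L high and CD44 low. Within the CD4+ and the CD8+ gate, the tertile with the most and the tertile with the least CD5 on the surface were sorted. This gave the groups CD8+CD5hi, CD8+CD5lo, CD4+CD5hi and CD4+CD5lo (below CD8 CD5hi and so on), with 4 biological replicates and so 4 libraries each. All groups came from mice of that strain, with no allele or treatment named. The labels state neither the age of the mice nor whether a replicate was 1 animal or a pool, so p-values measure the spread between these libraries. By its title the study concerns how CD5 sets basal NF-kB signalling, and the labels state no question about the coreceptors.

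CD4 is a single-chain receptor that binds MHC class II, and CD8 binds MHC class I. On conventional CD8 T cells CD8 is a dimer of an alpha chain, encoded by Cd8a, and a beta chain, encoded by Cd8b1. Both coreceptors bring the kinase LCK to the T cell receptor when it meets its peptide-MHC ligand. Double-positive thymocytes express all 3 genes. Commitment to the CD8 lineage silences Cd4, and commitment to the CD4 lineage shuts off the CD8 genes.

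The 3 genes lie on chromosome 6 of GRCm38 (mm10), by GENCODE vM21. Cd8b1 (ENSMUSG00000053044.8, chr6:71322788-71337494) and Cd8a (ENSMUSG00000053977.13, chr6:71373427-71379173) are both on the plus strand, 35932 bp apart. Cd4 (ENSMUSG00000023274.14, chr6:124864692-124888221) is on the minus strand. None of the 3 shares exonic bases with another annotated gene, which bears on whether low counts could come from a neighbour's exons. The proteins differ in the cytoplasmic tail, where LCK docks on CD4 and on the CD8 alpha chain through a pair of cysteines held around a zinc ion. The last 120 coding bases of each gene, stop codon included, are shown because they set the chains apart by role. They come from the longest annotated coding sequence of each in GENCODE vM21, written 5′ to 3′ on the coding strand, and capitals mark 2 cysteine codons (TGT or TGC) with 1 codon between them.
Cd4: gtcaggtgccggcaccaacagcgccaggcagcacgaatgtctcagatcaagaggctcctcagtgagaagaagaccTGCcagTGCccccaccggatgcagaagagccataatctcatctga
Cd8a: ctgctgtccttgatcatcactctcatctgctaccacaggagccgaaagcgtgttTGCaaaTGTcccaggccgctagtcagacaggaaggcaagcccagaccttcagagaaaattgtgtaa
Cd8b1: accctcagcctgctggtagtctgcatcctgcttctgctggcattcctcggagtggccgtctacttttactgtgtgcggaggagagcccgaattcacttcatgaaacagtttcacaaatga
Cd4 and Cd8a each had 1 such pair in these 40 codons, with 11 codons between the pair and the stop codon in Cd4 and 18 in Cd8a. The end of Cd8b1 held 2 cysteine codons but no such pair.

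Libraries held 71447252 to 93418385 counts, and each member had at least 36 counts in every library. B cell markers stood apart in 3 libraries: CD8 CD5hi replicate 4, CD8 CD5lo replicate 3 and CD4 CD5lo replicate 3. The summed level of 16 B cell markers was 1025, 631 and 399.6 CPM (counts-per-million of the library, after TMM scaling) in these, against 11.05 to 73.7 CPM in the other 13. Results that rest on these 3 libraries are given with and without them, which was decided once the data had been seen. In such bulk samples, fewer cells of a type and less RNA per cell cannot be told apart.

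The sorted lineages carried the coreceptor they were sorted for at high levels, which is a check of the labels and not a finding. Cd8a averaged 1604 ± 41.1 CPM in CD8 CD5hi and 1979 ± 151 CPM in CD8 CD5lo, against 1.39 ± 0.60 CPM in CD4 CD5hi and 5.44 ± 4.26 CPM in CD4 CD5lo (mean ± SD, n = 4 libraries each, also below). Cd8b1 averaged 962 ± 59.4 CPM in CD8 CD5hi and 1329 ± 107 CPM in CD8 CD5lo, against 7.996 ± 0.457 CPM in CD4 CD5hi and 28.15 ± 2.20 CPM in CD4 CD5lo. For Cd4 the medians were 0.643 CPM in CD8 CD5hi and 1.82 CPM in CD8 CD5lo, against 1028 CPM in CD4 CD5hi and 1150 CPM in CD4 CD5lo. All 16 libraries therefore matched their lineage label. All 3 genes were called in both lineage comparisons, where edgeR called 30.3% of genes at CD5hi and 19.5% at CD5lo (46.7% and 32.1% with the replicate number as a block), and nothing is read from that. The order of Cd8b1 was CD8 CD5lo, CD8 CD5hi, CD4 CD5lo and CD4 CD5hi from high to low, and no neighbours in it overlapped. Cd8a had the same order, with overlap between the CD4 groups, and for Cd4 the CD8 groups overlapped at the bottom. The share of all genes whose groups do not overlap was not computed, so overlap is given only as a description, here and below.

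Per kilobase of exon, the beta chain RNA was the more abundant of the CD8 pair. Cd8b1 stood at 649 ± 40.1 CPM per kilobase in CD8 CD5hi and 896 ± 72.1 in CD8 CD5lo. Cd8a stood at 441 ± 11.3 CPM per kilobase in CD8 CD5hi and 544 ± 41.5 in CD8 CD5lo. Cd4 in its own lineage was at 253.8 ± 9.80 CPM per kilobase in CD4 CD5hi and 287.5 ± 21.3 in CD4 CD5lo. These levels use the union of annotated exons (4032, 3637 and 1483 bp for Cd4, Cd8a and Cd8b1), and the labels do not name the annotation the authors counted on.

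**Figure D1:**
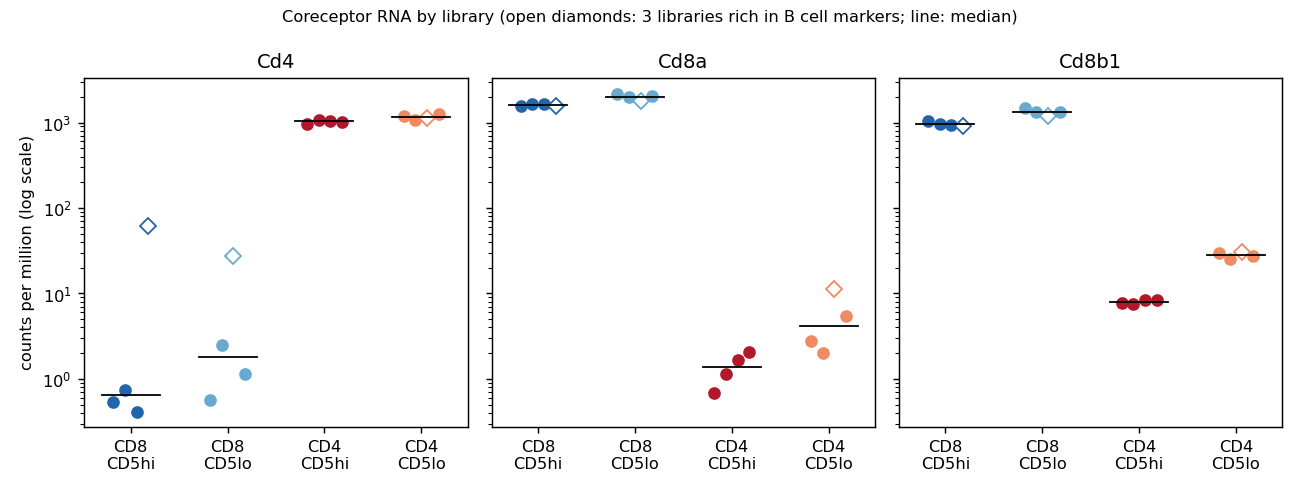
Level of each coreceptor gene in each of the 16 libraries, in CPM on a log axis, with groups along the x axis. Points are libraries, lines are medians of 4, and open diamonds mark the 3 libraries rich in B cell markers; Cd8b1 in CD4 libraries lies between 7.50 and 30.3 CPM with no overlap between CD5hi and CD5lo, and the 2 highest Cd4 values in CD8 libraries, 62.2 and 27.2 CPM, are open diamonds.

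In CD8 cells the RNA of both CD8 chains was lower at high CD5, and Cd8b1 passed the test. Cd8b1 was at 1046, 951, 947 and 905 CPM in CD8 CD5hi, against 1462, 1334, 1200 and 1320 CPM in CD8 CD5lo. All 4 CD5hi libraries lay below all 4 CD5lo libraries. Its log2 change was -0.47 ± 0.07 (SE, as for all log2 changes below; edgeR adjusted p = 0.000874), which is 1.38-fold lower. With the 3 B cell marker-rich libraries left out it fell by 0.47 ± 0.08 (edgeR adjusted p = 0.00239). Of the 3 members Cd8b1 alone was called lower here, and edgeR called 3.51% of all genes lower and 9.46% in either direction (4.04% lower without the 3 libraries).

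Cd8a, the alpha chain that carries the LCK site, was at 1563, 1645, 1634 and 1575 CPM in CD8 CD5hi, against 2140, 1973, 1778 and 2025 CPM in CD8 CD5lo. The groups did not overlap, which is not a test, and the CD5hi libraries were closely spaced. The log2 change was -0.30 ± 0.36 (95% interval -1.07 to 0.46, edgeR adjusted p = 0.683). That SE is estimated over all 16 libraries, including CD4 libraries in which Cd8a was near the floor and varied widely. Fitted on the 8 CD8 libraries alone, Cd8a fell by 0.29 ± 0.07 (95% interval -0.445 to -0.143, edgeR adjusted p = 0.0358), in a fit that called 1.88% of genes lower.

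In CD4 cells Cd4 itself was slightly lower at high CD5, and the difference did not pass the test. Cd4 was at 970.9, 1066, 1033 and 1024 CPM in CD4 CD5hi, against 1181, 1068, 1119 and 1268 CPM in CD4 CD5lo. The groups did not overlap, which is not a test, and replicate 2 of CD5hi nearly met replicate 2 of CD5lo. The log2 change was -0.18 ± 1.21 over all 16 libraries (edgeR adjusted p = 0.995), where the SE draws on the residual Cd4 of the CD8 libraries. Over the 8 CD4 libraries alone it was -0.18 ± 0.07 (95% interval -0.343 to -0.0254, edgeR adjusted p = 0.279).

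**Figure D2:**
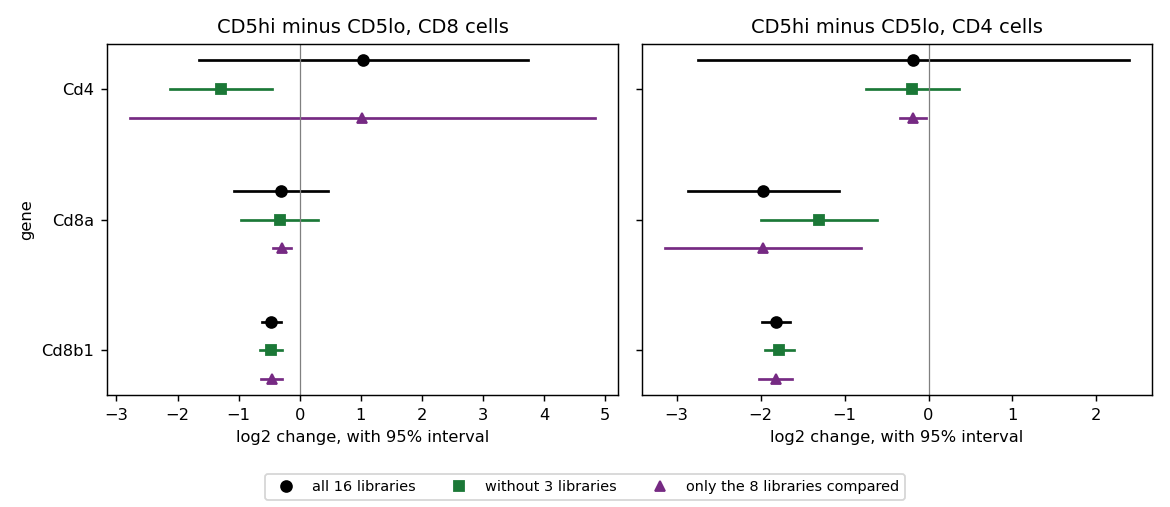
Log2 change of each coreceptor gene, CD5hi minus CD5lo, in CD8 cells (left) and CD4 cells (right), with 95% intervals from edgeR. Colours give the libraries in the fit: the estimates for Cd8b1 stay near -0.47 in CD8 cells and near -1.8 in CD4 cells in all 3 fits, while Cd4 in CD8 cells changes sign and the intervals of Cd4 and Cd8a widen or narrow with the libraries used.

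RNA of the CD8 chains was also present in CD4 libraries, and there too it was lower at high CD5. In CD4 libraries Cd8b1 was at 7.72, 7.50, 8.34 and 8.43 CPM in CD5hi, against 29.6, 25.5, 30.3 and 27.2 CPM in CD5lo. Each group was tight, with counts of 602 to 670 in CD5hi and 1878 to 2317 in CD5lo, and they did not overlap. Cd8b1 fell by 1.82 ± 0.08 (edgeR adjusted p = 4.76e-10), or 3.52-fold, and by 1.78 ± 0.08 without the 3 libraries (edgeR adjusted p = 1.66e-08). This exceeded the difference in CD8 cells: the CD5 effect in CD8 cells minus that in CD4 cells was 1.35 ± 0.11 (edgeR adjusted p = 1.61e-05), and 1.31 ± 0.12 without the 3 libraries (edgeR adjusted p = 0.000352). For that interaction edgeR called 0.31% of genes, and 0.951% without the 3 libraries.

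Cd8a was far scarcer in CD4 libraries, at 0.693, 1.15, 1.65 and 2.08 CPM in CD5hi, against 2.79, 2.02, 11.4 and 5.49 CPM in CD5lo. The groups overlapped: replicate 4 of CD5hi lay above replicate 2 of CD5lo, and the highest value was in CD4 CD5lo replicate 3, where B cell markers were abundant. Cd8a fell by 1.97 ± 0.42 over all libraries (edgeR adjusted p = 0.0122) and by 1.31 ± 0.32 without the 3 (edgeR adjusted p = 0.0367). The call was lost in the fit on the 8 CD4 libraries alone (log2 change -1.97 ± 0.53, edgeR adjusted p = 0.0755). Its CD5 effect in CD8 cells minus that in CD4 cells was 1.66 ± 0.55 (edgeR adjusted p = 0.323). Of the 3 members, Cd8a and Cd8b1 were called lower in CD4 CD5hi, where edgeR called 1.4% of all genes lower and 4.08% in either direction. The share lower was 3.99% with the replicate block, 1.23% without the 3 libraries and 1.18% on the CD4 libraries alone.

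As a share of its mean in the CD8 group of the same CD5 class, residual Cd8b1 was 0.831% ± 0.0475 in CD4 CD5hi and 2.12% ± 0.165 in CD4 CD5lo. Residual Cd8a was 0.0867% ± 0.0374 in CD4 CD5hi and 0.275% ± 0.216 in CD4 CD5lo, or 0.174% in CD4 CD5lo without replicate 3. Of the list of CD8 lineage genes, Nkg7, a granule membrane protein, and Itgae, the integrin chain CD103, were also scarce in CD4 libraries. They are set beside the chains here, a choice made after their values were seen. The rest of that list stood higher against its CD8 level. In CD4 CD5hi it ran from 1.85% (Ccl5) to 69.9% (Gzmm), and in CD4 CD5lo from 4.46% (Eomes) to 68.1% (Gzmm). Nkg7 stood at 0.0688% of its CD8 level in CD4 CD5hi and at 0.446% in CD4 CD5lo, where replicate 3 had 1.26% and the other 3 libraries 0.0983 to 0.244%. Itgae stood at 0.341% in CD4 CD5hi and 0.383% in CD4 CD5lo. Like Cd8a, Nkg7 and Itgae were highest in CD4 CD5lo replicate 3, at 3.84 and 3.36 CPM, against at most 0.741 and 1.58 CPM in the other CD4 libraries, whereas Cd8b1 there was within 1 CPM of replicate 1.

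RNA of the beta chain in CD4 libraries did not come with alpha chain RNA in the proportion seen in CD8 libraries. For each count of Cd8a there were 0.669, 0.578, 0.579 and 0.575 counts of Cd8b1 in the CD8 CD5hi libraries and 0.683, 0.676, 0.675 and 0.652 in CD8 CD5lo. In CD4 CD5hi there were 11.15, 6.53, 5.07 and 4.06, and in CD4 CD5lo 10.6, 12.6, 2.65 and 4.96. No CD8 library came near a CD4 library, and the lowest CD4 value was that of CD5lo replicate 3. The mean log2 ratio was -0.74 ± 0.11 in CD8 CD5hi against 2.62 ± 0.62 in CD4 CD5hi, a difference of -3.36, and -0.58 ± 0.03 in CD8 CD5lo against 2.69 ± 1.04 in CD4 CD5lo, a difference of -3.26. A two-sided exact permutation test gave p = 0.0286 for each, the smallest 4 against 4 allows, and 0.0571 adjusted over the 4 ratio comparisons, so neither passes after adjustment. Within a lineage no difference of the ratio by CD5 passed the test. With 4 libraries a group, and SDs of 0.62 and 1.04 in the CD4 groups, this does not show that the ratios are alike. The difference, CD5hi minus CD5lo, was -0.16 in CD8 cells (exact permutation p = 0.0571, adjusted 0.0762) and -0.07 in CD4 cells (exact permutation p = 0.914, adjusted 0.914). Per length the ratio averaged 1.47 and 1.65 in the CD8 CD5hi and CD5lo libraries, and 16.4 and 18.9 in the CD4 CD5hi and CD5lo libraries.

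**Figure D3:**
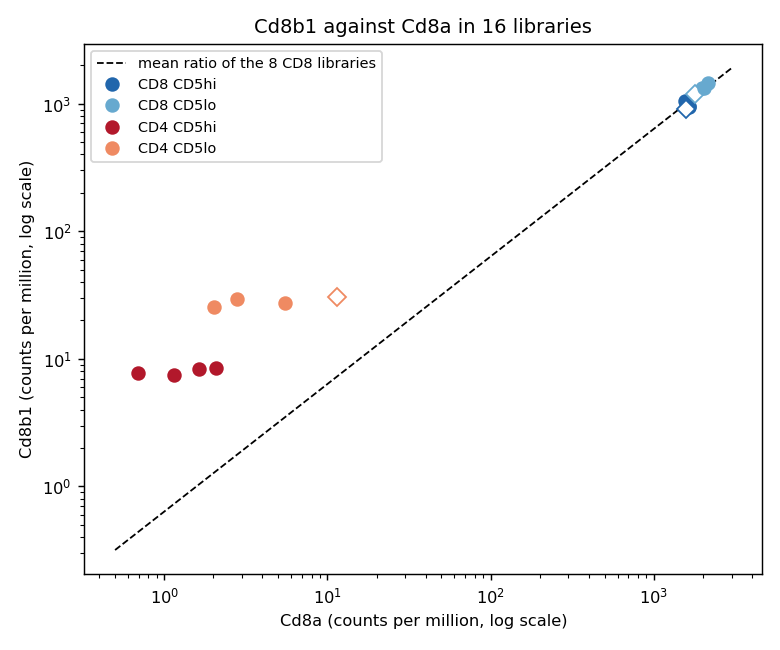
Cd8b1 against Cd8a in the 16 libraries, both in CPM on log axes. The dashed line is the mean ratio of the 8 CD8 libraries, which lie on it at the top right; all 8 CD4 libraries lie above it, in a CD5lo row from 25.5 to 30.3 CPM of Cd8b1 and a CD5hi row from 7.50 to 8.43 CPM.

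Cd8b1 was also set beside the amount that would go with Cd8a at the CD8 ratio, by multiplying each CD4 library's Cd8a level by the mean ratio in CD8 libraries of the same CD5 class, a calculation added after the data were seen. At that ratio Cd8b1 would have been at 0.416, 0.690, 0.988 and 1.25 CPM in CD4 CD5hi, and at 1.88, 1.36, 7.67 and 3.69 CPM in CD4 CD5lo. Between 85.2 and 94.6% of Cd8b1 in CD5hi, and between 74.7 and 94.7% in CD5lo, lay beyond those amounts. This remainder was 7.30, 6.81, 7.35 and 7.18 CPM in CD4 CD5hi, against 27.7, 24.1, 22.6 and 23.5 CPM in CD4 CD5lo. It averaged 7.16 ± 0.246 CPM in CD5hi and 24.5 ± 2.25 CPM in CD5lo, and the groups did not overlap. The calculation assumes that Cd8a and Cd8b1 keep 1 fixed ratio, and the source of Cd8b1 RNA in CD4 libraries was not tested.

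**Figure D4:**
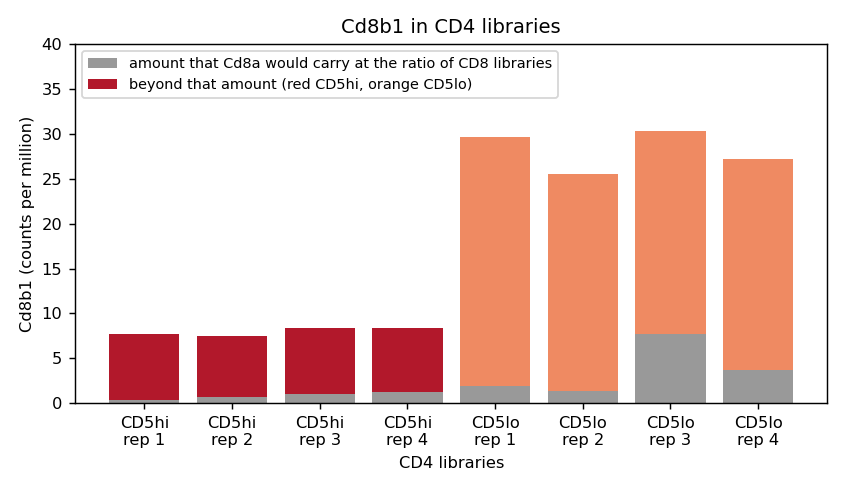
Cd8b1 in each CD4 library in CPM, as bars from 0. Grey is the amount Cd8a would carry at the ratio of CD8 libraries and colour is the remainder, red in CD5hi and orange in CD5lo; the remainder is 6.81 to 7.35 CPM in CD5hi and 22.6 to 27.7 CPM in CD5lo, and grey is tallest, at 7.67 CPM, in CD5lo replicate 3.

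Markers of other cells moved with these residual levels in part. The summed level of 7 natural killer cell markers was 12.3 to 19.6 CPM in CD4 CD5hi, against 23.6 to 41.1 CPM in CD4 CD5lo. Of the 7, Klra8 and Klra4 were at 0 in all 8 of these libraries, and Klra4 was at 0 in every CD8 library too. Ncr1 was above 0 in CD4 CD5hi replicate 4 and in CD4 CD5lo replicates 3 and 4. Of the 4 natural killer markers tested, edgeR called 2 lower in CD4 CD5hi, beside 1.4% of all genes. For 12 thymocyte genes the sum was 254 to 286 CPM in CD4 CD5hi, against 285.9 to 319.8 CPM in CD4 CD5lo. The recombinase gene Rag2 was at 0 in all 8. Rag1 was above 0 in CD4 CD5hi replicate 4 and CD4 CD5lo replicates 2 and 3. Ptcra was at 0 only in CD4 CD5hi replicate 2 and CD4 CD5lo replicate 1. Of the 9 thymocyte genes tested, edgeR called 1 higher and 2 lower in CD4 CD5hi, beside 4.08% of all genes in either direction. The 14 myeloid and dendritic cell markers summed to 39.3 to 45.4 CPM in CD5hi, against 41.0 to 52.6 CPM in CD5lo. The 10 CD8 lineage genes, a list without the CD8 chains, summed to 254.1 to 308.9 CPM in CD5hi, against 238.9 to 300.8 CPM in CD5lo. Their total thus overlapped between the groups. Without replicate 3 the CD5lo range was 238.9 to 251.3 CPM, all below CD5hi. Ctsw and Runx3, the most abundant of the 10, averaged 121.7 and 95.9 CPM in CD5hi. In CD5lo they averaged 84.4 and 83.04 CPM, so the total mainly follows them. Of the 10 genes edgeR called 2 higher and 3 lower in CD4 CD5hi, beside 4.08% of all genes in either direction. Their median log2 change was -0.65, beside -0.01 over all genes. B cell markers, with 16 of 16 in the table, summed to 11.05 to 40.1 CPM in CD5hi, against 22.3 to 40.7 CPM in CD5lo without replicate 3. The part of natural killer and thymocyte genes in the Cd8b1 difference was not tested.

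Residual Cd4 in CD8 libraries turned on single libraries. Cd4 was at 0.536, 0.750, 0.415 and 62.2 CPM in CD8 CD5hi, against 0.568, 2.51, 27.2 and 1.13 CPM in CD8 CD5lo. The 2 high values were those of CD8 CD5hi replicate 4 and CD8 CD5lo replicate 3, where B cell markers summed to 1025 and 631 CPM, and the remaining libraries overlapped. Over all libraries the log2 change was 1.04 ± 1.27 (95% interval -1.66 to 3.73, edgeR adjusted p = 0.692). Without the 3 libraries Cd4 was at 0.567 ± 0.170 CPM in CD5hi and 1.402 ± 0.997 CPM in CD5lo (n = 3 libraries each). It then fell by 1.29 ± 0.39 (edgeR adjusted p = 0.0481), the reverse direction. Leaving out CD8 CD5hi replicate 4 alone gave a fall by 3.77 ± 1.06 (edgeR adjusted p = 0.0311), and leaving out CD8 CD5lo replicate 3 alone gave a change of 3.50 ± 1.38 (edgeR adjusted p = 0.149). No direction for Cd4 in CD8 libraries is therefore drawn.

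As a share of its mean in the CD4 group of the same CD5 class, residual Cd4 was 6.08% in CD8 CD5hi replicate 4 and 2.35% in CD8 CD5lo replicate 3. In the other 6 CD8 libraries it was 0.0406 to 0.216%. Zbtb7b, which encodes ThPOK, the factor that commits thymocytes to the CD4 lineage, stood at 5.95% and 2.07% of its CD4 level in the same 2 libraries. Zbtb7b was at 0.0975 to 0.325% in the other 6. Cd40lg, the CD40 ligand of CD4 helper cells, stood at 8.27% and 2.503% there, against 1.38 to 2.75% in the other CD8 CD5hi libraries and 0.207 to 0.3995% in the other CD8 CD5lo libraries. Zbtb7b and Cd40lg were picked from the 10 CD4 lineage genes after their values were seen. The whole list summed to 493.1 CPM in CD8 CD5hi replicate 4 and 535.6 CPM in CD8 CD5lo replicate 3, against 390.4 to 548.3 CPM in the other CD8 CD5hi libraries and 328.7 to 479.9 CPM in the other CD8 CD5lo libraries, so at CD5hi its total did not stand out. What share of CD4 cell RNA that total could show was not tested. On average over CD8 CD5hi, Icos, Tnfsf8 and Ctla4 stood at 98.96, 104.2 and 91.2% of their CD4 level, and the rest of the list at 1.62 to 59.0%. The myeloid and dendritic cell markers, of which Siglech and Clec9a are most restricted, summed to 84.4 and 67.15 CPM in these 2 libraries, against 47.2 to 55.5 CPM in the other 6. In those 6 Clec9a was at 0, while Siglech was above 0 in CD8 CD5hi replicate 2 and CD8 CD5lo replicate 1. The part of B cell, myeloid and CD4 cell RNA in residual Cd4 was not tested.

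**Figure D5:**
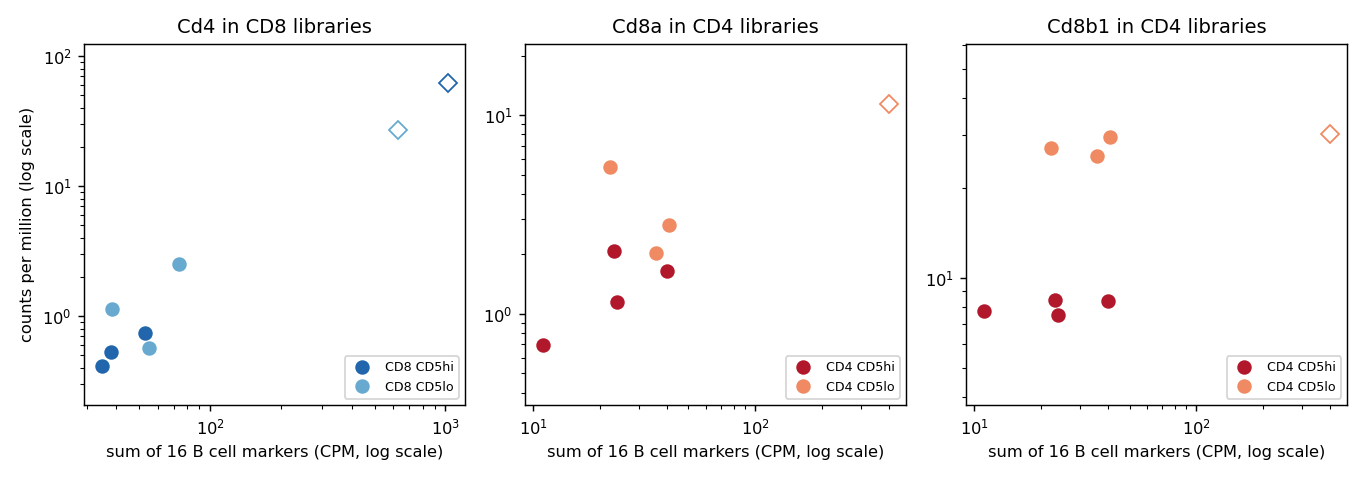
Residual coreceptor RNA (y axis, CPM, log scale, own range in each panel) against the sum of 16 B cell markers (x axis, CPM, log scale), for Cd4 in CD8 libraries and for Cd8a and Cd8b1 in CD4 libraries. Points are libraries and open diamonds the 3 rich in B cell markers: Cd4 reaches 62.2 and 27.2 CPM and Cd8a 11.4 CPM there, while Cd8b1 at 30.3 CPM is level with the other CD5lo libraries.

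Some genes whose products work with the coreceptors changed with CD5, and Lck did not pass the test. Lck, the kinase both coreceptors carry, was at 1229 and 1347 CPM in CD8 CD5hi and CD5lo (log2 change -0.13 ± 0.08, edgeR adjusted p = 0.358). It was at 1249 and 1340 CPM in CD4 CD5hi and CD5lo (log2 change -0.10 ± 0.08, edgeR adjusted p = 0.777). Of 16 partners of the coreceptors, all tested, 2 rose and 2 fell in CD8 CD5hi, and 2 rose and 1 fell in CD4 CD5hi, with median log2 changes of 0.00 and 0.04 beside -0.00 and -0.01 over all genes. Over all genes tested, edgeR called 9.46% in CD8 cells and 4.08% in CD4 cells in either direction, and whether the list exceeds those shares was not tested. Unc119, an adaptor that activates LCK and FYN, rose by 1.03 ± 0.16 in CD8 cells, to 16.8 CPM in CD5hi against 8.25 CPM in CD5lo (edgeR adjusted p = 0.000601). In CD4 cells it rose by 0.84 ± 0.16, to 14.6 against 8.19 CPM (edgeR adjusted p = 0.00404). Cd247, the CD3 zeta chain, fell by 0.28 in CD8 cells and by 0.27 in CD4 cells (edgeR adjusted p = 0.0114 and 0.0260). Other calls were a rise of Palm, the paralemmin gene (0.78, at 4.28 against 2.502 CPM), in CD8 cells and a rise of the SRC family kinase Fyn (0.21) in CD4 cells.

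Of 28 factors known to act on the coreceptor genes or on lineage choice, 4 rose and 2 fell in CD8 CD5hi and 5 rose in CD4 CD5hi. These counts stand beside the same 9.46% of all genes called in CD8 cells and 4.08% in CD4 cells. The median log2 changes of the factors were 0.05 and 0.10. Zbtb7b was at 343 and 331 CPM in CD4 CD5hi and CD5lo (log2 change 0.05 ± 0.91, edgeR adjusted p = 0.998), with an SE that draws on its residual level in CD8 libraries. Runx3, which silences Cd4 and activates the CD8 genes in CD8 cells, was at 180.5 and 179.1 CPM in CD8 CD5hi and CD5lo (log2 change 0.01 ± 0.22, edgeR adjusted p = 0.983). In CD4 CD5hi and CD5lo it was at 95.9 and 83.04 CPM (0.21 ± 0.22, edgeR adjusted p = 0.881). In both lineages the nuclear factor Tox (0.35 in CD8 and 0.57 in CD4 cells), the Ikaros family factor Ikzf3 (0.56 and 0.54) and the DNA methyltransferase Dnmt3a (0.43 and 0.35) rose. In CD8 cells Uhrf1, a maintenance methylation factor, rose by 1.29, while Bcl11b, needed for T cell identity, fell by 0.51 and Runx1, a RUNX factor that represses Cd4 in immature thymocytes, fell by 0.43. In CD4 cells the transcription factors Myb (0.85) and Ets1 (0.27) rose. For the CD5 effect in CD8 cells minus that in CD4 cells, edgeR called 0 of the 28 factors and 0.31% of all genes. No difference between lineages is therefore drawn from these calls.

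Genes with patterns most like the members' are given as descriptions, by Pearson r of log2(CPM + 1) among genes at a mean of 5 CPM or more. Libraries of 1 lineage share a sort, so r over all 16 mainly follows the lineage. Over all 16 libraries Zbtb7b was most like Cd4 (r = 0.996), followed by Aldh2, Cd81, Lgmn and St8sia6 (0.975 to 0.982). Nkg7, Haao, Mcoln2, Itgae and Sytl3 were most like Cd8a (0.995 to 0.997), and Sytl3, Atp8b4, Baiap3, Cd8a and Nedd4 most like Cd8b1 (0.991 to 0.995). Within the 8 libraries of the lineage sorted for them, Cd8a and Cd8b1 had r = 0.945 with each other, and the list for Cd8a was led by Pyroxd1, Akap10, Kcnh3, Narf and Cul4a (0.958 to 0.963). That for Cd8b1 was led by Edem1, Rhoh, Arl5c, Kcnh3 and Zfp672 (0.968 to 0.979), and that for Cd4 by Tecpr2, Pik3r5, Wars2, Khnyn and Ccdc167 (0.958 to 0.975).

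In the lineage not sorted for, the lists differed by member. Residual Cd4 over the 8 CD8 libraries was most like Fcmr, Cd79a, Wdfy4, Scd1 and H2-Eb1 (r = 0.988 to 0.994), of which Fcmr, Cd79a and H2-Eb1 are on the list of B cell markers. Residual Cd8b1 over the 8 CD4 libraries was most like Dhrs13, Spsb1, Cacnb3, Kif23 and Nacc2 (0.987 to 0.996). Cd8b1 there was at 7.50 to 8.43 CPM in CD5hi, against 25.5 to 30.3 CPM in CD5lo, so its r mainly follows the CD5 class. Residual Cd8a there was most like Col20a1, Tmem104, St3gal3, Drosha and Grn (0.948 to 0.966), and its r with Cd8b1 was 0.759.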

How the data were processed

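The values used were the authors' deposited counts, 1 table of whole numbers with a column per sample (0 columns unmatched), with no normalisation visible in the values. Per the submitters' processing notes, STAR 2.5.2a, featureCounts 1.4.6-p3 and DESeq2 were used with mm10; per the labels' protocols, the library kit was TruSeq RNA v2 or its stranded mRNA version. The labels do not say which was used for which sample, nor do they name the annotation or the strand setting. Each sample had 1 column, although 2 technical replicates per sample are mentioned in the design text. Counts of 1 to 9 were even in 73.9 to 80.5% of cases (49.2 to 51.3% for counts of 1000 or more), so halved counts were tried too.

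Differences were tested by edgeR 4.0.16 under R 4.3.3 (TMM, filterByExpr with minimum count 10 and total 15, 1 term per group over 16 libraries, 12 residual degrees of freedom, quasi-likelihood F test). P-values are two-sided, adjusted by Benjamini-Hochberg over the 13554 genes of each comparison, with a threshold of 0.05. The SE is the log2 change over the square root of F. Ratios of Cd8b1 to Cd8a used counts plus 1. The procedure was tested on simulated data. Precision figures cover spread between libraries and, for single counts, counting error only.

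Members, gene lists, comparisons and alternatives were chosen with earlier results of these data known. Named genes were the members, Lck, Zbtb7b and Runx3, the called genes of the 2 lists (up to 6 a comparison) and the 5 genes most like each member in each set of libraries, without predicted genes and receptor segments. Of the genes this rule names, 1 is not reported here. Same-numbered libraries deviated together from their group means in CD4 cells (r 0.223 to 0.508 over 4 pairs) and across lineages (0.179 to 0.678 at CD5lo, 0.214 to 0.497 at CD5hi), and not in every pair in CD8 cells (-0.046 to 0.529). The pairing comes from the replicate numbers in the sample titles. DESeq2 1.42.0 was an alternative tool.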

Additional observations from a re-analysis of the deposited data

Results flagged for a closer look

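Of 16 sets of 4 libraries examined (3 genes and the chain ratio in each group), 3 had a library far from the others; chance flags about 1 in 20. Cd4 stood at 62.2 CPM in CD8 CD5hi replicate 4, against at most 0.750 CPM in the other 3 of its group. In CD8 CD5lo it stood at 27.2 CPM in replicate 3, while the other 3 reached at most 2.51 CPM. Both are libraries rich in B cell markers. The log2 ratio of Cd8b1 to Cd8a was -0.58 in CD8 CD5hi replicate 1, against -0.80 to -0.79 in the other 3 of that group and -0.62 to -0.55 in CD8 CD5lo.

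The CD5 effect on Cd8b1 differed between lineages, by 1.35 on the log2 scale (CD8 effect minus CD4 effect, ± 0.11, edgeR adjusted p = 1.61e-05). Cd8b1 fell in the libraries of both lineages, by more in CD4 libraries. In each lineage all 4 CD5hi libraries were below all 4 CD5lo libraries, which is only a description.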

How the results depend on the processing

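Cd8b1 kept its direction and call in all 5 comparisons under every alternative run. The direction of Cd4 in CD8 cells reversed with the 3 B cell marker-rich libraries left out (-1.29, and -1.10 for its interaction) and ran from -3.77 to 3.50 when single libraries were left out (interaction -3.59 to 3.68). DESeq2 gave no adjusted p for Cd4. On the groups compared alone, Cd8a in CD4 cells lost its call (-1.97) and Cd8a in CD8 cells gained one (-0.29). The replicate block called 1312 genes in CD4 cells, 3390 in CD8 cells, 379 in the interaction, 4345 at CD5lo and 6336 at CD5hi, against 553, 1282, 42, 2638 and 4111 without it, and changed no call of a member. The groups compared alone gave 813 genes in CD8 cells. For the interaction DESeq2 called 218 and the fit without the 3 libraries 129. Leaving out single libraries gave 763 to 1647 genes in CD8 cells and 8 to 165 in the interaction. The chain ratio, CD5hi minus CD5lo in CD4 cells, ran from -0.49 to 0.25 when single libraries were left out. With a denominator over both CD8 groups, residual Cd8b1 was 0.698% in CD4 CD5hi and 2.46% in CD4 CD5lo. RLE scaling, no filter and halved counts changed no call or direction. The causes were not tested. Residual Cd8a and Cd4 rest on as few as 54 and 36 counts in a library.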

Other observations

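Neighbours of the members on chromosome 6, by GENCODE vM21, did not share one pattern. Of 10 tested near Cd4, edgeR called 3 higher in CD8 CD5hi and 1 higher in CD4 CD5hi. Of 6 tested near Cd8a and Cd8b1, it called 2 lower in CD8 CD5hi and 0 in CD4 CD5hi. These counts stand beside 9.46% of all genes called in CD8 cells and 4.08% in CD4 cells. Smyd1, a muscle methyltransferase gene on the opposite strand that lies 554 bp before Cd8b1, was at 0.509 CPM in CD8 CD5hi, against 1.38 CPM in CD8 CD5lo, a fall by 1.43 ± 0.32 (edgeR adjusted p = 0.00983). In CD4 CD5hi and CD5lo it was at 0.0689 and 0.0756 CPM (log2 change -0.13 ± 0.42, edgeR adjusted p = 0.988). Thnsl2, 178348 bp before Cd8b1, fell by 0.87 in CD8 cells. Rmnd5a, 9460 bp beyond Cd8a, was at 166 and 171 CPM in CD8 CD5hi and CD5lo (log2 change -0.04 ± 0.07, edgeR adjusted p = 0.776). Next to Cd4, 16139 bp away, Lag3, an inhibitory receptor that also binds MHC class II, rose by 2.55 ± 0.50 in CD8 cells, to 1.697 CPM in CD5hi against 0.293 CPM in CD5lo (edgeR adjusted p = 0.00399), and by 2.06 ± 0.48 in CD4 cells, to 2.38 against 0.570 CPM (edgeR adjusted p = 0.0210). Tpi1 and Cdca3, also near Cd4, rose by 0.64 and 0.82 in CD8 cells (edgeR adjusted p = 5.59e-05 and 0.00911). Gpr162, a receptor gene 708 bp from Cd4, was at 1.34 and 1.24 CPM in CD4 CD5hi and CD5lo (log2 change 0.11 ± 0.77, edgeR adjusted p = 0.995).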
